A study of Homo sapiens with 12 samples.

Results

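The genes described here are 10 targets of the FOXO and MondoA transcription factors: TXNIP, ARRDC3, ARRDC4, IRS2, INSR, PIK3IP1, CCNG2, BCL6, CDKN1B and FOXO3. They were chosen by symbol from 41878 gene rows. Each symbol had 1 row, and 10 of the 10 passed the expression filter that left 18030 genes for testing. RNA sequencing had been done on polyadenylated RNA from HEK293T, an established line of human embryonic kidney origin, grown in DMEM/F12 with serum. All cells were transiently transfected with 1 µg of plasmid. The 4 groups, each of 3 replicates that the labels call biological, were control vector in 10% serum (vector fed), control vector without serum for 4 h (vector starved), TRPML3 plasmid in 10% serum (TRPML3 fed) and TRPML3 plasmid without serum for 4 h (TRPML3 starved). TRPML3 is a cation channel of endosomes and lysosomes encoded by MCOLN3. The labels give neither the promoter of the plasmid nor the share of cells transfected, and the protocol names the withdrawal of serum only.

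FOXO factors are held in the cytoplasm when insulin or growth factors activate PI3K and AKT, since AKT phosphorylates them. When these signals stop, FOXO factors enter the nucleus, and their targets, among them receptors and adaptors of insulin signalling and brakes of the cell cycle, are known to be induced in many cell types. MondoA (gene MLXIP) acts with MLX, accumulates in the nucleus when glucose 6-phosphate is plentiful, and is best known for driving TXNIP and ARRDC4. Both inputs can meet on TXNIP, an α-arrestin that binds thioredoxin and limits glucose uptake.

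Sequences upstream of TXNIP, ARRDC4, CCNG2 and ARRDC3 are shown because they hold letters of the elements that these factors are known to bind. They are from RefSeq (GRCh38.p14), whose table held 17 start windows for the 10 genes, each of 300 bases with 250 before the start. In TXNIP (145996580 to 145996829 on chromosome 1, minus strand) the 250 bases before the start are given, and capitals mark matches to the motifs searched:
TXNIP: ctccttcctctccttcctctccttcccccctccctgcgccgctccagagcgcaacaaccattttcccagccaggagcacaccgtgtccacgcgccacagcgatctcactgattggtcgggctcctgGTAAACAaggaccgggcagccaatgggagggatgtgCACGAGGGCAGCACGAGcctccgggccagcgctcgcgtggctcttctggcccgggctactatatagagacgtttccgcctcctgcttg
The first capitals, at -124 to -118 from the start, match the FOXO core GTAAACA, and the second, at -88 to -72, match the paired E-box-like pattern CACGNGNNNNNCACGNG of carbohydrate response elements. Each motif was searched on both strands. The paired pattern was present in 20 of 35116 start windows of all genes (0.0570%) and, among the 17 windows of the 10 genes, in that of TXNIP only. The FOXO core was present in 3.42% of all windows and in windows of TXNIP, ARRDC3 and PIK3IP1. A single E-box, CACGTG, was present in 7.26% of all windows and in those of ARRDC4 and CCNG2. The 2 patterns with CACG can overlap, since CACGTG is also a form of CACGNG. Shorter stretches around these matches compare the other upstream sites:
ARRDC4: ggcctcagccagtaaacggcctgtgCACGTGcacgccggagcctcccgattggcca
CCNG2: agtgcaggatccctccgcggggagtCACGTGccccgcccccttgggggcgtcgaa
ARRDC3: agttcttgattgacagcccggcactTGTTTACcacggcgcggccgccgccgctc
The ARRDC4 site lay at -210 to -205 on the plus strand (97960468 to 97960523 on chromosome 15 for the stretch shown), the CCNG2 site at -30 to -25 on the plus strand (77157152 to 77157206 on chromosome 4) and the ARRDC3 site at -29 to -23 from the more downstream of its RefSeq starts, on the minus strand (91380098 to 91380151 on chromosome 5). The CCNG2 and ARRDC3 stretches lie inside the genes as annotated in GENCODE release 29 (77157151 to 77433388 and 91368724 to 91383359). They are upstream only of the RefSeq starts used here. A match is a run of letters and not a measured binding site.

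Library totals ran from 33101540 to 43700547 counts. MCOLN3 had 9.30 to 18.5 CPM (the count relative to the TMM-scaled library size, the unit of all levels below) in vector libraries and 4929 to 58220 in TRPML3 libraries, so it followed the labels for the plasmid. Its level also differed between serum states within TRPML3 cells, with 6211, 4929 and 39970 CPM in fed and 41360, 58220 and 16900 in starved replicates 1, 2 and 3, higher when starved in replicates 1 and 2 and lower in replicate 3. Its part in the TRPML3 and interaction comparisons was not tested. The 9 genes usually detected in HEK293T cells, IRS4 among them, were all tested and summed to 893 to 1431 CPM per library, and 10 markers of blood, liver, fibroblast, endothelial and epithelial cells summed to 4.70 to 24.0. Fed replicate 3 correlated better with starved replicates 1 and 2 (mean Spearman rho across genes 0.951 in vector and 0.945 in TRPML3 cells) than with fed replicates 1 and 2 (0.936 and 0.935). Over all 66 pairs of libraries the median rho was 0.9376 within groups and 0.9395 between groups. The values of 0.936 and 0.935 were thus near the usual value within groups. The share of mitochondrial counts was 4.83 to 5.70% in the 4 libraries numbered 3, 2.81 to 4.399% in those numbered 1 and 1.05 to 2.52% in those numbered 2. What part this played in the results below was not tested, and the tests of the 10 genes are given with and without replicate 3.

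The first comparison asks how these targets respond to the withdrawal of serum. The α-arrestins TXNIP, ARRDC3 and ARRDC4 were lower in starved cells of both plasmids, by 2.86-fold, 4.87-fold and 2.12-fold in the average of the plasmids. CCNG2, FOXO3, BCL6, INSR, IRS2 and PIK3IP1 were also lower on average, and of these only CCNG2 and FOXO3 had an unadjusted p under 0.05 in the edgeR test below. In replicate 3, CCNG2, BCL6, IRS2, PIK3IP1 and CDKN1B were higher when starved with both plasmids. CDKN1B had 89.6 CPM fed and 116 starved there with the vector, and 96.1 and 146 with TRPML3. In replicates 1 and 2 CDKN1B was nearly level. In RNA from whole cultures, fewer expressing cells and less RNA per cell cannot be told apart. The average starvation effect over all 12 libraries was tested by quasi-likelihood in edgeR, and 0 of the 10 genes had an adjusted p under 0.05, beside 0% of the 18030 genes. At an unadjusted p under 0.05, 5 of 10 were lower and 0 higher, while 4.79% of all genes were lower and 4.66% higher, and 5 of 10 became 8 of 10 without TRPML3 starved replicate 3 alone (5.59% of all genes lower). It was 3 of 10 without replicate 1 of all groups (2.08%) and 3 of 10 without replicate 2 (2.09%). The median log2 fold change of the 10 genes was -0.84, beside 0.01 for all genes tested. Without replicate 3, an adjusted p under 0.05 was reached by 6 of 10 genes, all lower, while 1.94% of all genes were lower and 2.54% higher at that threshold.

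**Figure D1:**
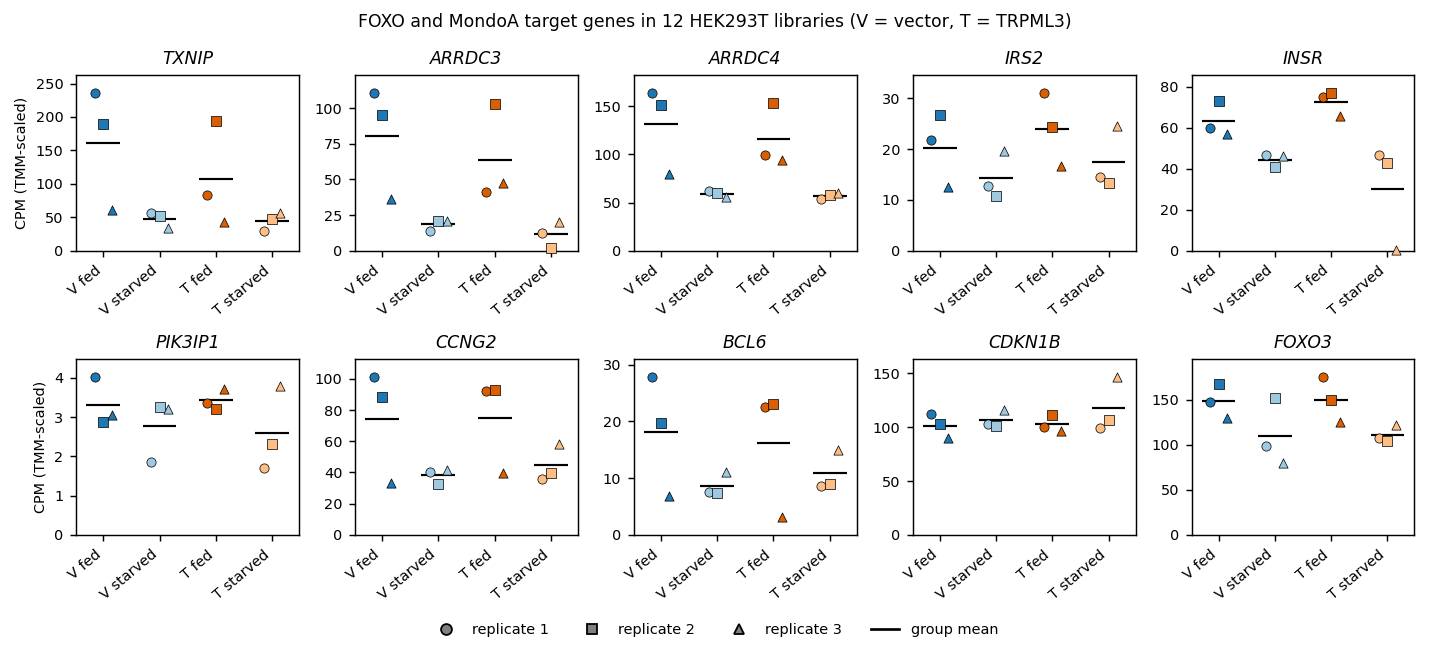
Level of each gene in the 12 libraries, in CPM after TMM scaling (linear axes from 0, one panel per gene). Points are libraries, shapes are replicate numbers and bars are means of 3 libraries. Circles and squares of the fed groups stand above the starved groups for TXNIP, ARRDC4, CCNG2 and BCL6. The fed triangles of TXNIP, CCNG2 and BCL6 lie near or below the starved points. CDKN1B is nearly level apart from its triangles, which are higher when starved with both plasmids.

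TXNIP (ENSG00000265972, chromosome 1, 145992435 to 145996600) had 235, 189 and 61.5 CPM in vector fed replicates 1, 2 and 3 and 56.5, 52.6 and 33.6 in the starved ones. In TRPML3 cells it had 83.7, 194 and 43.9 when fed and 30.2, 47.7 and 56.2 when starved. The vector groups did not overlap, while the TRPML3 groups did, because fed replicate 3 lay below the starved replicates 2 and 3. The log2 fold change with starvation was -1.77 ± 0.58 (SE) in vector and -1.26 ± 0.57 in TRPML3 cells, with adjusted p-values of 1.00 and 0.869. For the average of both it was -1.51 ± 0.41 (unadjusted p = 0.00368, adjusted p = 0.352), and without replicate 3 it was -1.88 ± 0.31 (adjusted p = 0.0357).

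ARRDC4 (ENSG00000140450, chromosome 15, 97960698 to 97973838), an α-arrestin and, like TXNIP, a known MondoA target, had 163, 151 and 79.4 CPM in vector fed and 61.6, 59.6 and 56.2 in vector starved libraries. TRPML3 fed libraries held 98.9, 153 and 94.1 and TRPML3 starved libraries 53.4, 57.6 and 60.4. All 6 starved libraries lay below all 6 fed libraries, and the 6 starved values spanned only 53.4 to 61.6. Its average log2 fold change was -1.08 ± 0.20, and it had the lowest unadjusted p of the 10 genes (0.000199, rank 12 of 18030), with an adjusted p of 0.299. Without replicate 3 the value was -1.27 ± 0.16 (adjusted p = 0.0259).

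ARRDC3 (ENSG00000113369, chromosome 5, 91368724 to 91383359), an α-arrestin that takes part in receptor traffic, differed most in size. It had 110, 95.03 and 36.7 CPM in vector fed and 14.2, 20.8 and 20.9 in vector starved libraries. In TRPML3 cells the fed libraries held 41.0, 103 and 47.4 and the starved ones 12.8, 1.98 and 20.2. The groups did not overlap with either plasmid. The value of 1.98 CPM, in TRPML3 starved replicate 2, rests on 66 counts and is the lowest of the 12. Its average log2 fold change was -2.28 ± 0.51 (unadjusted p = 0.00102, adjusted p = 0.342). Without replicate 3 it was -2.90 ± 0.64, with an adjusted p of 0.0625. In the DESeq2 Wald test of the average effect, TXNIP, ARRDC3 and ARRDC4 passed with all 12 libraries, at adjusted p-values of 0.0256, 0.00138 and 0.000317. This is 3 of 10 genes, beside 0.857% lower at that threshold among the 15863 genes that DESeq2 gave an adjusted p. The other α-arrestins were scarce: ARRDC1 and ARRDC2 did not exceed 3.72 and 13.6 CPM, and ARRDC5 was listed at 0 in all libraries.

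Genes of the insulin signal itself came next. INSR (ENSG00000171105, chromosome 19, 7112255 to 7294034), the insulin receptor, had 60.1, 73.2 and 57.2 CPM in vector fed and 46.5, 40.7 and 46.3 in vector starved libraries. TRPML3 fed libraries held 74.96, 76.7 and 65.8, and TRPML3 starved libraries 46.6, 43.0 and 0.347. Fed libraries were thus above starved libraries with both plasmids. The last value is 12 counts in a library where the other 11 libraries held at least 1437, and it decided the fit: the log2 fold change in TRPML3 cells was -1.27 ± 0.98 with it and -0.70 without TRPML3 starved replicate 3. Of 9011 genes with a median of at least 10 CPM, 240 (2.66%) had at least 1 library below a 50th of that median, from 17 to 42 genes per library, and INSR was the only one of the 10 genes among them. In the average of both plasmids INSR had -0.89 ± 0.69 (adjusted p = 0.760) with all libraries and -0.67 ± 0.12 (adjusted p = 0.0444) without replicate 3.

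IRS2 (ENSG00000185950, chromosome 13, 109752698 to 109786568), the adaptor that carries the receptor's signal to PI3K, had 21.7, 26.6 and 12.5 CPM in vector fed and 12.7, 10.9 and 19.6 in vector starved libraries. TRPML3 fed libraries held 30.9, 24.4 and 16.7 and TRPML3 starved libraries 14.5, 13.3 and 24.6. Replicates 1 and 2 were higher when fed, and replicate 3 was higher when starved, with both plasmids. The average log2 fold change was therefore -0.48 ± 0.28 (adjusted p = 0.640) with replicate 3 and -1.005 ± 0.17 (adjusted p = 0.0386) without it, and -0.18 without replicate 2. PIK3IP1 (ENSG00000100100, chromosome 22, 31281593 to 31292534), an inhibitor of PI3K at the membrane, was the scarcest of the 10, at 1.69 to 4.01 CPM in the 12 libraries. Its groups overlapped with both plasmids, and its average log2 fold change was -0.33 ± 0.25 (adjusted p = 0.751), or -0.56 ± 0.26 (adjusted p = 0.268) without replicate 3 and -0.03 without replicate 1.

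CCNG2, BCL6 and CDKN1B act on proliferation. CCNG2 (ENSG00000138764, chromosome 4, 77157151 to 77433388), a cyclin that goes with cell cycle arrest, had 101, 88.4 and 33.0 CPM in vector fed and 40.5, 32.8 and 41.7 in vector starved libraries. TRPML3 fed libraries held 92.2, 93.1 and 39.9 and TRPML3 starved libraries 35.8, 39.8 and 58.0. Fed replicates 1 and 2 stood above every starved library, and fed replicate 3 stood among them. The average log2 fold change was -0.85 ± 0.30 (unadjusted p = 0.0174, adjusted p = 0.428), and without replicate 3 it was -1.32 ± 0.13 (adjusted p = 0.0248). Without replicate 1 it was -0.58. BCL6 (ENSG00000113916, chromosome 3, 187721377 to 187745727), a transcriptional repressor, was also higher in fed replicates 1 and 2 than in every starved library, and lower in fed replicate 3. With the vector it had 27.8, 19.6 and 6.92 CPM when fed and 7.52, 7.38 and 11.1 when starved. With TRPML3 it had 22.6, 23.1 and 3.16 when fed and 8.70, 8.89 and 15.05 when starved. TRPML3 fed replicate 3 had the lowest BCL6 level of the 12. The average log2 fold change was -0.82 ± 0.47 (adjusted p = 0.642) with all libraries and -1.51 ± 0.18 (adjusted p = 0.0259) without replicate 3. Without replicate 1 it was -0.33.

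CDKN1B (ENSG00000111276, chromosome 12, 12715058 to 12722371), which encodes the kinase inhibitor p27, was the steadiest gene. It ranged from 89.6 to 146 CPM over the 12 libraries, a 1.63-fold span, and its average log2 fold change was 0.14 ± 0.13 (adjusted p = 0.812), or -0.04 ± 0.10 (adjusted p = 0.826) without replicate 3. Its sign thus depended on replicate 3. FOXO3 (ENSG00000118689, chromosome 6, 108559835 to 108684774), a FOXO factor and itself a target, had 148, 168 and 130 CPM in fed and 98.5, 152 and 79.7 in starved libraries with the vector. With TRPML3 the fed libraries held 175, 149 and 125 and the starved ones 107, 104 and 122. Fed and starved libraries overlapped in vector cells and not in TRPML3 cells. The average log2 fold change was -0.43 ± 0.17 (unadjusted p = 0.0262, adjusted p = 0.462), and -0.47 ± 0.16 (adjusted p = 0.162) without replicate 3. The near-identical copy FOXO3B had 26.4 CPM in vector starved replicate 2, where FOXO3 was also highest among the starved libraries, and at most 8.84 in the other 11, so the split of reads between the copies is uncertain.

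**Figure D2:**
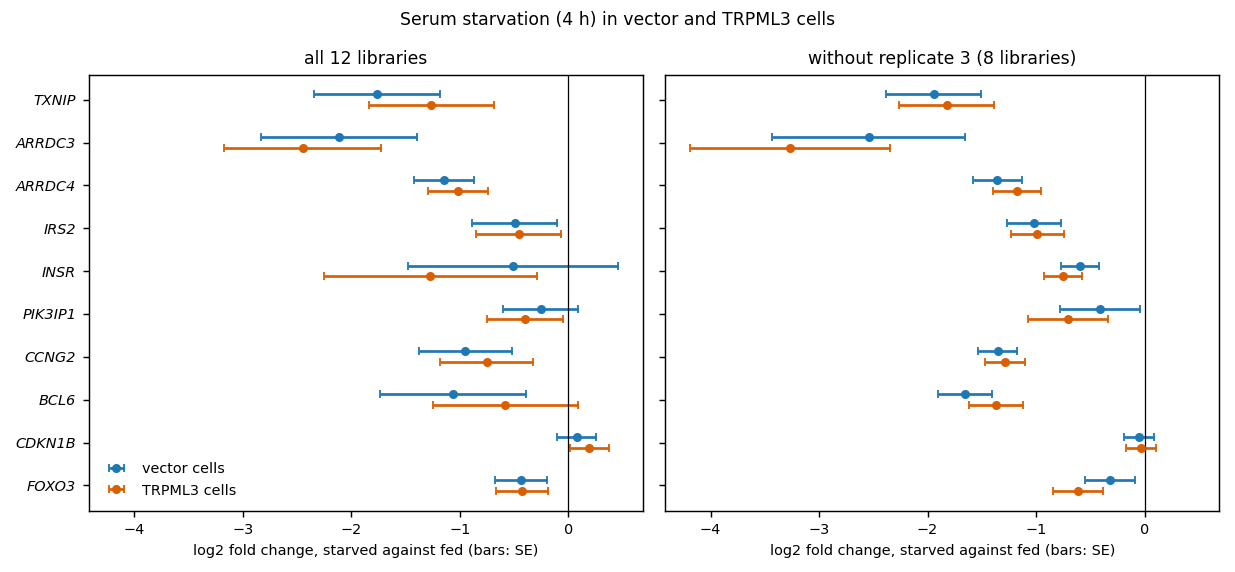
Log2 fold change of starved against fed libraries for each gene in vector (blue) and TRPML3 (orange) cells, with bars of 1 SE, from all 12 libraries (left) and without replicate 3 (right). Points of 9 of 10 genes lie left of 0 in the left panel, the points of both plasmids lie within each other's bars for most genes, and the bars of INSR shorten without replicate 3.

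By plasmid, 4 of 10 genes had an unadjusted p under 0.05 for starvation in vector cells (TXNIP, ARRDC3, ARRDC4 and CCNG2, all lower), where 2.21% of all genes were lower at that level, and 0 passed adjustment, as did 0.00555% of all genes. In TRPML3 cells ARRDC3 and ARRDC4 did so, 2 of 10 against 2.97% of all genes, and 0 passed adjustment, beside 0% of all genes. That count was 4 without vector fed replicate 3, TRPML3 fed replicate 3 or TRPML3 starved replicate 3, each left out alone, where 3.53%, 4.13% and 3.87% of all genes were lower. It was 1 without replicate 2 of all groups (1.40%). Counted without a model, all starved libraries lay below all fed libraries in 4 of 10 genes in vector cells (TXNIP, ARRDC3, ARRDC4 and INSR) against 4.57% of all genes. In TRPML3 cells this held for 4 of 10 (ARRDC3, ARRDC4, INSR and FOXO3) against 5.66%, and with both plasmids for 3 of 10 (ARRDC3, ARRDC4 and INSR) against 0.81%. Without replicate 3, an unadjusted p under 0.05 was reached by 7 of 10 genes in vector cells, against 6.51% of all genes lower, and by 8 of 10 in TRPML3 cells, against 8.14%. None of the 10 passed adjustment within 1 plasmid there, where 0% of all genes passed in vector and 0.00554% in TRPML3 cells.

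Fed replicate 3 was low for most of these genes. In vector cells, fed replicate 3 lay below both other fed replicates for 9 of 10 genes, as it did for 39.8% of all genes, and in TRPML3 cells for 8 of 10, against 37.4%. Relative to the mean of fed replicates 1 and 2, vector fed replicate 3 held 0.290 of TXNIP, 0.292 of BCL6 and 0.349 of CCNG2, and TRPML3 fed replicate 3 held 0.316, 0.139 and 0.430. The starved replicates 1 and 2 held 0.258, 0.314 and 0.387 of the same means in vector cells and 0.280, 0.385 and 0.408 in TRPML3 cells. For these 3 genes the fed libraries numbered 3 were thus nearer to starved than to fed libraries. INSR and CDKN1B were less affected, with ratios of 0.859 and 0.834 in vector and 0.867 and 0.908 in TRPML3 cells. Starved replicate 3 differed too, relative to the mean of starved replicates 1 and 2. In vector cells it held 1.66 of IRS2, 1.49 of BCL6, 1.14 of CCNG2 and 1.14 of CDKN1B. In TRPML3 cells these values were 1.77, 1.71, 1.53 and 1.42. It was lower for TXNIP (0.615), ARRDC4 (0.928) and FOXO3 (0.638) in vector cells and for INSR (0.00775) in TRPML3 cells. TRPML3 fed replicate 3 also had the most MCOLN3 of the fed libraries. Vector fed replicate 3 had 18.5 CPM of MCOLN3, the most of the vector libraries, and similarly low TXNIP, BCL6 and CCNG2. What part MCOLN3 had in these levels was not tested.

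**Figure D3:**
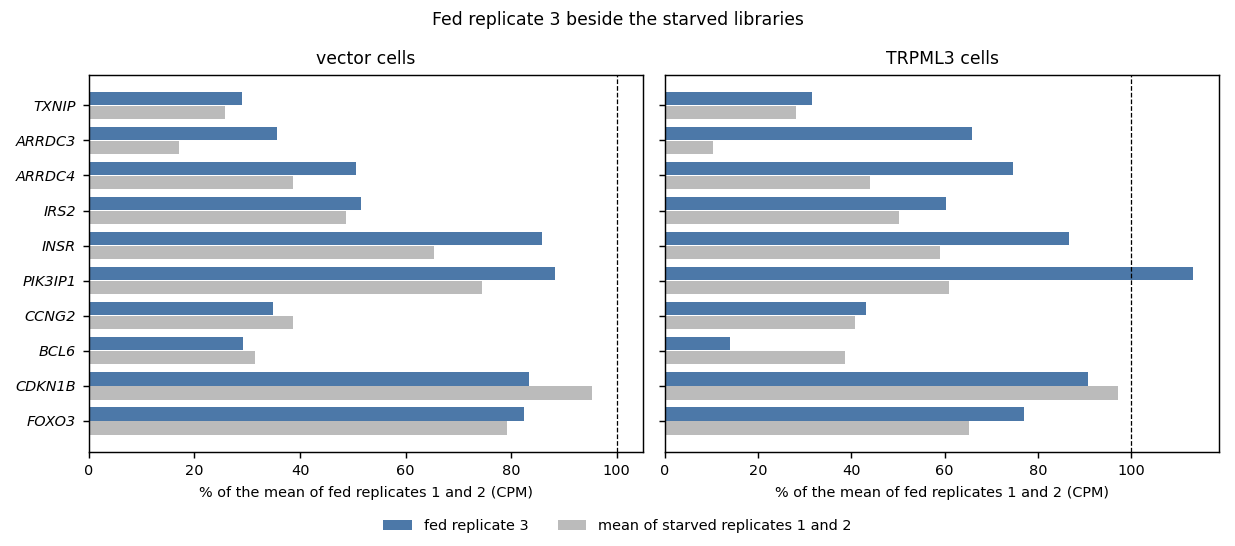
Level of each gene in fed replicate 3 (blue) and mean of starved replicates 1 and 2 (grey), as a percentage of the mean of fed replicates 1 and 2 (dashed line at 100%), in vector (left) and TRPML3 (right) cells. The blue bars of TXNIP, CCNG2 and BCL6 are about as short as the grey ones or shorter, while those of INSR and FOXO3 are longer than the grey ones and that of CDKN1B is a little shorter with both plasmids.

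The second comparison, of TRPML3 with vector libraries, asks whether the channel alters these targets. In fed cells 4 of 10 genes were lower and 6 higher, log2 fold changes ran from -0.59 (TXNIP, ± 0.57 SE) to 0.24 (IRS2, ± 0.39), and 0 of 10 had an unadjusted p under 0.05, where 2.21% of all genes did (1 of 10 without TRPML3 fed replicate 2, beside 2.66% of all genes). At an adjusted p under 0.05, 0 of 10 passed, as did 0.0111% of all genes. In starved cells 5 were lower and 5 higher, values ran from -0.67 (ARRDC3, ± 0.69) to 0.33 (BCL6, ± 0.67), and 0 of 10 had an unadjusted p under 0.05, against 2.20% of all genes. There 0 passed adjustment, beside 0.00555% of all genes. Medians of the 10 genes were 0.01 and -0.02, beside -0.01 and -0.01 for all genes. Without replicate 3, 7 were lower and 3 higher in fed cells, from -0.60 ± 0.42 (TXNIP) to 0.20 ± 0.24 (IRS2). In starved cells 5 were lower and 5 higher, from -1.23 ± 0.86 (ARRDC3) to 0.24 ± 0.24 (BCL6). The fed and the starved comparison share no library. With all libraries the standard errors ran from 0.18 (CDKN1B) to 0.97 (INSR), and a p above 0.05 does not show that the plasmids act alike.

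The interaction, which tests whether the starvation effect differed between plasmids, ran from -0.76 ± 1.37 for INSR to 0.50 ± 0.80 for TXNIP. For 0 of 10 genes was the unadjusted p under 0.05 (lowest 0.543), while 2.07% of all genes had such a p, and 0 passed adjustment, like 0% of all genes. Starvation effects in vector and TRPML3 cells were -1.15 ± 0.28 and -1.02 ± 0.28 for ARRDC4, -2.12 ± 0.72 and -2.45 ± 0.73 for ARRDC3, and -0.95 ± 0.43 and -0.75 ± 0.43 for CCNG2. These pairs of values lay within 1 SE of each other. Without replicate 3 the interaction ran from -0.73 ± 1.19 (ARRDC3) to 0.29 ± 0.34 (BCL6).

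Levels of different genes were compared after division by the length of their exons in GENCODE release 29 (GRCh38). In vector fed cells TXNIP was highest, at 44.6 ± 24.8 CPM per kb (SD, n = 3), followed by CDKN1B at 36.1 ± 4.04 and ARRDC4 at 32.2 ± 11.1, and these 3 did not differ beyond their spread. FOXO3 at 19.3 ± 2.45 and ARRDC3 at 16.4 ± 7.88 followed, also within their spread of each other. The spreads of TXNIP and ARRDC4 overlapped those of FOXO3 and ARRDC3, and the spread of ARRDC3 overlapped that of CCNG2. CCNG2 had 9.92 ± 4.83, INSR 6.07 ± 0.814, BCL6 3.05 ± 1.77, IRS2 2.49 ± 0.883 and PIK3IP1 0.870 ± 0.161, and in this part of the order BCL6 and IRS2 did not differ beyond their spread, nor did CCNG2 and INSR. In vector starved cells CDKN1B led at 38.1 ± 2.92 CPM per kb, above ARRDC4 (14.5 ± 0.664), FOXO3 (14.2 ± 4.82) and TXNIP (13.1 ± 3.39). The last 3 did not differ beyond their spread.

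The genes did not all move together over the 12 libraries. As a description, with libraries that fall into the high fed replicates 1 and 2 and the rest, Pearson's r of log2 CPM was over 0.8 in 6 of 45 pairs, and its median was 0.45. TXNIP and ARRDC4 had the highest r (0.927, rho = 0.895), with r = 0.929 for the deviations from the group means and 0.981 without replicate 3. Next came IRS2 with CCNG2 (r = 0.876, rho = 0.839) and CCNG2 with BCL6 (r = 0.874, rho = 0.888), and the latter pair was higher than TXNIP with ARRDC4 for the deviations (0.933) and without replicate 3 (0.986). At the other end, INSR and CDKN1B had r = -0.812 but rho = -0.329, and r = 0.286 without the 4 libraries numbered 3. Those 4 include the library with 12 INSR counts. With all libraries, r of INSR with the remaining genes ran from -0.218 (PIK3IP1) to 0.360 (ARRDC4). Without replicate 3 it ran from 0.522 (PIK3IP1) to 0.972 (IRS2). Some pairs of CDKN1B were low there, such as 0.0799 with FOXO3 and 0.228 with IRS2. Among 18014 genes ranked by r with TXNIP, the 5 most alike were WDR47 (0.936), ATOSB (0.935), MSMO1 (0.934), MXI1 (0.932) and ARRDC4 (0.927). MSMO1 is an enzyme of cholesterol synthesis and MXI1 a repressor of the MYC network. For IRS2 they were PLCL1 (0.972), SAMD4A (0.953), CLMN (0.937), EPB41L4B (0.937) and SLC35F1 (0.936), and CCNG2 ranked 67.

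Further genes of the pathway were counted from lists written from general knowledge. Of the 7 transcription factors FOXO1, FOXO3, FOXO4, FOXO6, MLXIP, MLX and MLXIPL, 0 passed edgeR's adjusted threshold for average starvation. At an unadjusted p under 0.05 FOXO3 and FOXO6 were lower, beside 4.79% of all genes. FOXO6 had -0.59 ± 0.27 (unadjusted p = 0.0486, adjusted p = 0.520 in edgeR). Without replicate 3 the list's median was -0.47 and again 0 passed. MLXIP, the MondoA gene, had -0.15 ± 0.16 with starvation and was lower with TRPML3 in starved cells at an unadjusted p of 0.0322 (-0.56 ± 0.23, adjusted p = 1.00). In the chain from insulin receptor to AKT, 0 of 28 genes passed, 25 were lower and 3 higher, and the median was -0.30 against 0.01 for all genes. SGK3, a kinase that also acts on FOXO factors, had -0.72 ± 0.29 (unadjusted p = 0.0325, adjusted p = 0.475 in edgeR). Without replicate 3, 21 of the 28 were lower and 7 higher. At an adjusted p under 0.05, 4 were lower and 0 higher, beside 1.94% of all genes lower and 2.54% higher. The 4 were PIK3R3, SGK3, IRS2 and INSR, of which the last 2 are among the 10 genes.

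Other FOXO targets were mostly lower as well. Of 23 tested, 17 were lower and 6 higher with average starvation, with a median of -0.23, and 0 passed adjustment. At an unadjusted p under 0.05, where 4.79% of all genes were lower and 4.66% higher, KLF15 was higher and 4 were lower. These were FBXO32, a muscle atrophy ubiquitin ligase (-0.95 ± 0.31), PDK4, a brake on pyruvate use (-1.22 ± 0.41), GADD45A, a stress and growth arrest gene (-0.74 ± 0.27), and BBC3, a pro-apoptotic gene (-0.51 ± 0.19). KLF15, a transcription factor of fasting metabolism, had 0.91 ± 0.35 at a low level, from 1.81 ± 0.473 CPM (SD, n = 3) in vector fed to 4.32 ± 2.54 in TRPML3 starved cells. Without replicate 3, 17 of 23 were lower and 6 higher. At an adjusted p under 0.05, 5 were lower (GADD45A, GABARAPL1, TSC22D3, PDK4 and FBXO32) and 1 higher (KLF15). At that threshold 1.94% of all genes were lower and 2.54% higher. Of 2 cyclins that FOXO factors are known to repress, CCND2 was also lower, at -0.64 ± 0.22 (unadjusted p = 0.0165, adjusted p = 0.427 in edgeR). Without replicate 3 it fell by 0.81 on the log2 scale (adjusted p = 0.0414). CCND1, the other cyclin, had -0.03 ± 0.38, and -0.04 ± 0.52 without replicate 3. Of 4 further MondoA and ChREBP targets tested, 4 were lower, with PFKFB3, a glycolytic regulator, at -0.58 ± 0.16 (unadjusted p = 0.00478, adjusted p = 0.363) and KLF10, a transcription factor, at -0.85 ± 0.28 (0.0111 and 0.389). Without replicate 3, 3 were lower and 1 higher, and 0 passed adjustment: HK2, a hexokinase, went from -0.12 ± 0.36 to 0.49 ± 0.38. The 4 genes of the thioredoxin system, whose protein TXNIP binds, had a median of 0.15 (0.22 without replicate 3), and 0 of 4 had an unadjusted p under 0.05 in either fit. As a check of the serum state, 20 early serum response genes were counted. Their median for average starvation was -0.18 with all libraries, with 14 lower and 6 higher. By plasmid it was 0.02 in vector cells (9 lower and 11 higher) and -0.33 in TRPML3 cells (13 lower and 7 higher). Without replicate 3 it was -0.63 on average (18 lower and 2 higher), -0.61 in vector cells and -0.68 in TRPML3 cells. At an adjusted p under 0.05 for that average, 5 of 20 were lower and 0 higher, beside 1.94% and 2.54% of all genes. With all libraries 0 passed adjustment, and the feedback inhibitors SPRY4, DUSP6 and SPRY2 had -3.14 ± 0.67, -2.13 ± 0.54 and -0.70 ± 0.21, while MYC, a growth regulator, had 0.55 ± 0.16, each at an unadjusted p under 0.05. Of all genes, 4.79% were lower and 4.66% higher at that level.

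**Figure D4:**
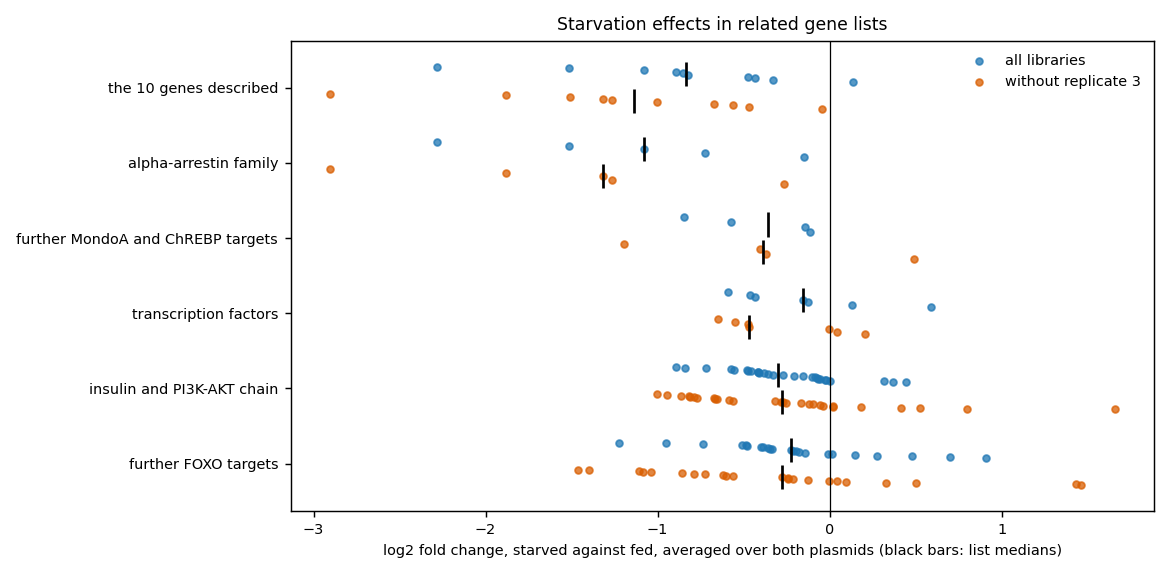
Log2 fold change of starved against fed cells, averaged over both plasmids, for each tested gene of 6 lists, from all 12 libraries (blue) and without replicate 3 (orange); black bars are list medians. Medians of all 6 lists lie left of 0 in both sets, and those of the 10 genes and of the α-arrestin family, which holds TXNIP, ARRDC3 and ARRDC4, lie farthest left.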

How the data were processed

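RNA-seq counts of 12 HEK293T libraries were used, with groups and replicate numbers from the sample titles. The authors deposited whole-number counts for 41878 gene rows and, for 23252 of them, a normalized signal that equals the count divided by 1 factor per library. FastQC, fastp, HISAT2, StringTie, DESeq2 and GRCh38 are named in the submitters' processing notes without roles. Whether the counts are rounded estimates, and whether strand was used, is not given in the sources used here, so ARRDC3 and PIK3IP1 cannot be separated from their antisense genes ARRDC3-AS1 and PIK3IP1-AS1 (at most 3.46 and 0.796 CPM).

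Counts were tested with edgeR 4.0.16 in R 4.3.3 (TMM, filterByExpr, robust quasi-likelihood fit to all 12 libraries, 1 coefficient per group, Benjamini-Hochberg over 18030 genes, threshold 0.05). Alternatives were DESeq2 1.42.0, limma 3.58.1 on log2(signal + 1), other scalings and filters, a replicate block and left-out libraries. Log2 CPM for correlations used a prior count of 2. The steps were tested on simulated data whose biological spread was set smaller than that of these data (common biological coefficient of variation 0.527). The simulation thus does not show the power or error rate of the steps at the spread found here. The members, lists and alternatives were chosen with earlier results of these data known. All 10 members were named, with MCOLN3 as the check of the labels and the 5 genes most alike TXNIP and IRS2 by Pearson's r. From each list, genes with an unadjusted p under 0.05 were named, at most 4 per list and comparison, smallest p first. KLF15, further genes that passed adjustment without replicate 3, MLXIP's starvation value, HK2, CCND1, the scarce α-arrestins and the libraries singled out were named after their values were seen. 1 further gene that the rule names is not reported here. Same-numbered fed vector and TRPML3 libraries deviated together (r = 0.11, 0.15 and 0.33), so their numbers were taken as pairing them. The main fit had no term for the replicate number, so its standard errors and p-values leave this pairing out. Only the replicate block used it, and that block also joined same-numbered libraries across serum states. Between starved libraries r was 0.13, 0.095 and 0.32, so that not every pair exceeded 0.1, and between serum states it lay from -0.076 to 0.0075. No 2 libraries agreed within counting noise (chi-square per gene at least 139 in 66 pairs). The depth puts 3 counts at no more than 0.0978 CPM.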

Additional observations from a re-analysis of the deposited data

How the results depend on the processing

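For the 10 genes and 6 comparisons, 1395 of 1480 alternative log2 fold changes kept their direction and 85 reversed. Of 666 starvation values other than those of CDKN1B, 1 reversed. With DESeq2's Wald test 3 of the 10 genes were lower at an adjusted p under 0.05 for average starvation. So were 0.857% of the 15863 genes that DESeq2 gave an adjusted p. Under DESeq2's size factors, no filter and DESeq2's Wald test the FOXO3 interaction was -0.002273, -0.002837 and -0.002225. With library size only it was -0.0382, the IRS2 interaction was -0.0109, FOXO3 with TRPML3 in starved cells was -0.09175, and in fed cells PIK3IP1, CCNG2, CDKN1B and FOXO3 were -0.02412, -0.04132, -0.05273 and -0.05356. The IRS2 interaction was -0.02103 with limma on normalized values. The replicate block, which pairs same-numbered libraries, turned TXNIP with TRPML3 in starved cells to 0.04657 and changed no adjusted call. The cause of these reversals was not tested.

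Leaving out replicates moved the number of genes at an adjusted p under 0.05 for average starvation from 0 to 6, and at an unadjusted p from 3 to 8 for average starvation, 1 to 7 in vector cells, 1 to 8 in TRPML3 cells and 0 to 1 for TRPML3 in fed cells. The 6 genes at an adjusted p, and the 7 and 8 in vector and TRPML3 cells, were found without replicate 3 of all groups. Log2 fold changes that crossed 0 when replicates were left out are given as their lowest and highest values. For starvation they were -0.468 to 0.1165 for PIK3IP1 in vector cells, and for CDKN1B -0.05608 to 0.1732 in vector cells, -0.03207 to 0.3104 in TRPML3 cells and -0.04408 to 0.2294 on average. For TRPML3 in fed cells they were -0.8486 to 0.1816 for ARRDC3, -0.442 to 0.09673 for ARRDC4, -0.011 to 0.4903 for IRS2, -0.05799 to 0.215 for PIK3IP1, -0.333 to 0.324 for CCNG2, -0.5406 to 0.3359 for BCL6, -0.06555 to 0.09939 for CDKN1B and -0.1304 to 0.1255 for FOXO3. For TRPML3 in starved cells they were -0.4848 to 0.2713 for TXNIP, -0.1242 to 0.02618 for ARRDC4, -0.06351 to 0.5639 for IRS2, -1.037 to 0.04227 for INSR, -0.4804 to 0.1355 for PIK3IP1, -0.02974 to 0.3888 for CCNG2, -0.06409 to 0.2383 for CDKN1B and -0.2412 to 0.3558 for FOXO3. For the interaction they were -1.095 to 0.6205 for ARRDC3, -0.07055 to 0.3914 for ARRDC4, -0.3208 to 0.3205 for IRS2, -0.5409 to 0.09112 for PIK3IP1, -0.11 to 0.5472 for CCNG2, -0.006781 to 0.8698 for BCL6, -0.09022 to 0.2202 for CDKN1B and -0.2885 to 0.3073 for FOXO3. Depth limits PIK3IP1, at 4.01 CPM or less, and the libraries with 12 INSR and 66 ARRDC3 counts.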
